A study of Mus musculus with 2 samples.

Results

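The genes described here encode the main neurotrophin and glial cell line-derived neurotrophic factor (GDNF) signalling components of the developing nervous system: the ligands Bdnf, Ntf3 and Gdnf, and the receptors Ntrk2, Ntrk3, Ngfr, Gfra1 and Ret. They were taken by symbol from the gene tables made with the GENCODE M21 annotation, and all 8 were found among 55536 annotated genes in both libraries. The series holds polyA RNA-seq of hindbrain from B6NCrl mouse embryos at embryonic day 12.5, as 2 pools of male and female embryos, 120 embryos in pool 1 and 88 in pool 2. The labels name no treatment and no mutant allele, and they describe the pools as biological replicates of 1 group, so the design holds no contrast between conditions and allows no test. Values are therefore given for each pool, with the mean ± SD over n = 2 pools, and the difference between the pools is a measure of replicate spread.

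As background, the mature neurotrophins act as dimers on receptor tyrosine kinases of the Trk family. TrkB, the product of Ntrk2, binds brain-derived neurotrophic factor, and TrkC, the product of Ntrk3, binds neurotrophin-3, while p75NTR, the product of Ngfr, binds all of the neurotrophins and is a member of the tumour necrosis factor receptor family without a kinase. Ntrk2 and Ntrk3 are also spliced into receptors that keep the ligand-binding and membrane-spanning parts but lack the kinase. GDNF binds GFRα1, the product of Gfra1, which is held to the membrane by a lipid anchor and presents the ligand to the receptor tyrosine kinase Ret. In the embryonic hindbrain and its nerves these pathways are known for their part in the survival and axon growth of motor and sensory neurons.

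The M21 annotation places the members on mm10 as follows. Ntrk2 lies at chr13:58806569-59133970 on the plus strand and Ntrk3 at chr7:78175959-78738012 on the minus strand. Ngfr lies at chr11:95568818-95587735 on the minus strand. Bdnf lies at chr2:109674700-109727007 on the plus strand and Ntf3 at chr6:126101412-126166910 on the minus strand. Gdnf lies at chr15:7810846-7837575 on the plus strand, Gfra1 at chr19:58235604-58455909 on the minus strand and Ret at chr6:118151745-118197718 on the minus strand. Each is annotated as protein-coding.

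The isoform results turn on the place where the coding sequences of Ntrk2 part. Each line below gives coding bases from the M21 transcripts, 5′ to 3′, with the last 24 bases common to all forms in lower case and the bases of the form's own in capitals. The full-length form Ntrk2-201, which encodes 821 residues, goes on from chr13:58985802-58985837 towards the kinase, and only its first 36 own bases are shown. Ntrk2-202 ends in the 11-residue tail known as T1, encoded by chr13:58932023-58932057 and shown to the stop codon. Ntrk2-205 ends in a terminal exon that no other annotated transcript of the gene shares, at chr13:58878339-58878749, of which chr13:58878339-58878421 is coding and adds 27 residues.
Ntrk2-201: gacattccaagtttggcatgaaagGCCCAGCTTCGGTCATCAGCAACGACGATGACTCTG
Ntrk2-202: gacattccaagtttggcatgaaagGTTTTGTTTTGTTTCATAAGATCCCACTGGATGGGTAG
Ntrk2-205: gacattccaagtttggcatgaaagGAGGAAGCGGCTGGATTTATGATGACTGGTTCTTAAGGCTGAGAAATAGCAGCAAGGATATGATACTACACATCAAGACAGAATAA

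Ntrk3 parts in the same manner, with the own bases of the full-length form at chr7:78260379-78260414 and those of the truncated form at chr7:78304367-78304426, both on the minus strand. Ntrk3-201 encodes 825 residues, and Ntrk3-202, the truncated form, encodes 612. Translated from M21, the full-length proteins Ntrk2-201 and Ntrk3-201 are identical at 54.8% of 850 aligned positions. The third line shows, in capitals, the 42 bases (14 residues, chr7:78204103-78204144) that Ntrk3-205 has within the kinase-coding part and Ntrk3-201 lacks. Ntrk3-206 has a longer insert of 117 bases at the same place, which contains those 42 bases.
Ntrk3-201: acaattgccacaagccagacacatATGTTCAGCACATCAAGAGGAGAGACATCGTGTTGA
Ntrk3-202: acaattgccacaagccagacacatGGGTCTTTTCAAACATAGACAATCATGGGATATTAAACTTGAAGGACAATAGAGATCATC
Ntrk3-205: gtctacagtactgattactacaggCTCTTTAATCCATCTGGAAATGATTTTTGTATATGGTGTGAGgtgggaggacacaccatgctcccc

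Ret has a pair of annotated forms that differ in their last residues, known as Ret51 and Ret9 for the length of these tails, and both keep the kinase. The capitals below mark the tail of each to the stop codon, 51 residues at chr6:118153856-118154010 for Ret-201 and 9 residues at chr6:118155259-118155287 for Ret-202, on the minus strand. In Gfra1 the capitals mark a cassette exon of 15 bases (5 residues, chr19:58392573-58392587, minus strand) that some forms include and others skip.
Ret-201: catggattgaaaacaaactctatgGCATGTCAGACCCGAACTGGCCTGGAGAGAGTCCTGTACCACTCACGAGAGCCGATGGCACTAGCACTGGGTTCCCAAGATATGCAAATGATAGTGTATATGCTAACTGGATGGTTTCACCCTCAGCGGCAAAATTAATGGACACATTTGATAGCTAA
Ret-202: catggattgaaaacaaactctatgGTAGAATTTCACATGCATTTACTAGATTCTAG
Gfra1-201: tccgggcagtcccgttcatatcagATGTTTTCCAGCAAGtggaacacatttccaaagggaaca

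Levels are given in TPM, an abundance scaled for library total and for transcript length, so that genes can be compared with each other. Pool 1 had 31469575 expected counts on genes and pool 2 had 29261472. The added spike-in RNAs took 3.31% and 4.25% of all counts. In TPM they held 79653 of 1000001 in pool 1 and 103202 of 999999 in pool 2, which lowers the TPM of every gene slightly more in pool 2. Hindbrain markers such as Hoxb2 (50.9 ± 8.24 TPM) and Hoxa2 (47.1 ± 9.46 TPM) were present, 5 of the 6 at 1 TPM or more in both pools. Of 4 forebrain markers 1 reached that level, Lhx2 at 24.17 and 23.79 TPM. The pools differed in marker RNA of tissue around the brain. The summed TPM of 7 skeletal muscle markers was 36.01 in pool 1 and 179 in pool 2. That of 5 otic epithelium markers was 250 and 105. All 7 muscle markers, led by Myl1 and Acta1, were more than 2-fold higher in pool 2, and all 5 otic markers, led by Oc90 and Fbxo2, more than 2-fold higher in pool 1.

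In M21 each receptor member had a higher mean TPM than each ligand member. Ntrk2, Gfra1 and Ngfr lay far above the ligands, while Ret lay close to Ntf3. Of the members, 7 of 8 reached 1 TPM in both pools, against 61.8% of all protein-coding genes, and the exception was the ligand Gdnf. Ntrk2 was listed at 55.12 TPM in the first pool and 50.17 TPM in the other, a mean of 52.6 ± 3.50 TPM (SD, n = 2), from 3915 and 3328 expected counts. Gfra1 was listed at 46.28 and 50 TPM, a mean of 48.1 ± 2.63 TPM, from 3240 and 3175 counts. The pools did not overlap for this pair, but their nearest values, 50.17 and 50 TPM, were closer than either SD and the deposited credibility intervals overlapped, so the order of Ntrk2 and Gfra1 was not resolved. These levels placed Ntrk2 and Gfra1 at the 84.8th and 83.2nd percentile of protein-coding genes by mean TPM.

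Ngfr followed at 29.88 and 31.72 TPM, a mean of 30.8 ± 1.30 TPM, from 1998 and 1955 counts. It was 1.56-fold below Gfra1 and 4.15-fold above Ntrk3, in each case with no overlap of pools or intervals. Ntrk3 was listed at 7.68 and 7.15 TPM (7.42 ± 0.375) and the kinase receptor Ret at 5.12 and 4.98 TPM (5.05 ± 0.0990). Both kinase receptors lay near the middle of protein-coding genes, at percentiles of 53.2 for Ntrk3 and 49.3 for Ret. The ligands Ntf3 and Bdnf lay not far below, at 46.0 and 44.5, and Gdnf at 31.8.

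Among the ligands, Ntf3, which encodes neurotrophin-3, was listed at 3.66 and 3.33 TPM, a mean of 3.50 ± 0.233 TPM, from 91 and 77 counts. Bdnf was listed at 2.5 and 3.29 TPM, a mean of 2.90 ± 0.559 TPM, from 193 and 235 counts. The highest Bdnf value lay just under the lowest Ntf3 value and the intervals overlapped, so the order of these ligands was not resolved. Gdnf was listed at 0.35 and 0.38 TPM, a mean of 0.365 ± 0.0212 TPM, from 25 counts in each pool. Its deposited intervals, 0.222 to 0.488 TPM in pool 1 and 0.24 to 0.528 TPM in pool 2, lay above the level that 3 counts would give, 0.0420 and 0.0456 TPM. Gdnf was 7.93-fold below Bdnf, with no overlap between the pools.

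**Figure D1:**
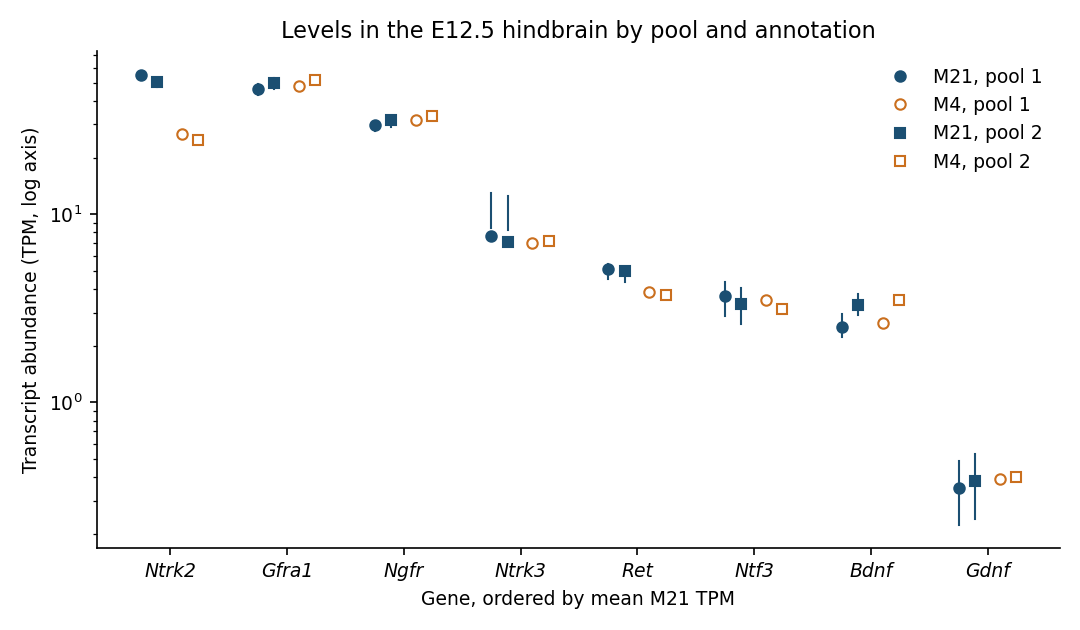
TPM of each member in pool 1 (circles) and pool 2 (squares) on a log axis, with filled symbols for M21 and open symbols for M4, and vertical lines for the credibility intervals deposited with the M21 values. The receptors Ntrk2, Gfra1 and Ngfr sit between 29.88 and 55.12 TPM in M21 and Gdnf under 0.5 TPM, the M21 and M4 symbols part most for Ntrk2, and the Ntrk3 symbols lie below their own M21 intervals.

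Set against each other within a pool, the binding receptor of GDNF exceeded the signalling receptor. The ratio of Gfra1 to Ret TPM was 9.04 in pool 1 and 10.0 in pool 2 (9.54 ± 0.708). That of Gfra1 to its ligand Gdnf was 132 in each pool (132 ± 0.459). With 25 Gdnf counts in each pool, the last SD does not cover counting error. The Gdnf intervals ran from 0.222 to 0.488 TPM in pool 1 and from 0.24 to 0.528 TPM in pool 2. The ratio of Ntrk2 to Ntrk3 TPM was 7.18 and 7.02 (7.10 ± 0.113). Ntrk2 exceeded Bdnf 22.0-fold in pool 1 and 15.2-fold in pool 2 (18.6 ± 4.81), a wider spread between the pools than that of the other ratios. These are ratios of RNA in whole tissue, where the genes can be in different cells.

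Most Ntrk2 RNA was of the forms without a kinase. A transcript was classed as full-length where its M21 coding sequence, once translated, held both the catalytic-loop and DFG motifs of the kinase. It was classed as truncated where it had a complete coding sequence and a membrane-spanning stretch but not both motifs. Truncated forms, 5 of the 10 annotated Ntrk2 transcripts, made up 75.4% of the gene's TPM in pool 1 and 75.2% in pool 2 (75.3% ± 0.132). Full-length forms, 2 transcripts, made up 22.1% and 23.1% (22.6% ± 0.677). In TPM, the truncated forms summed to 41.54 and 37.73 (39.6 ± 2.69) and the full-length forms to 12.19 and 11.58 (11.9 ± 0.431). The ratio of truncated to full-length TPM was 3.41 and 3.26 (3.33 ± 0.106), well outside the spread between the pools.

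Among the truncated Ntrk2 forms, those with the T1 tail led. T1 is encoded by 2 transcripts, Ntrk2-202 and Ntrk2-204, whose proteins are both 476 residues long, and together they held 45.3% of Ntrk2 TPM in pool 1 and 49.5% in pool 2 (47.4% ± 2.95). The shorter mRNA, Ntrk2-204 of 3049 bases, was listed at 19.47 and 19.87 TPM, and the longer, Ntrk2-202 of 6846 bases, at 5.49 and 4.95 TPM. The form with a terminal exon of its own, Ntrk2-205, was listed at 15.53 and 12.61 TPM, or 28.2% and 25.1% of the gene (26.7% ± 2.16). It is the shortest of these mRNAs at 2284 bases, and its 411 bases of own exon are what separates it from the other forms. The remaining truncated forms, Ntrk2-208 and Ntrk2-209, held 1.25% ± 0.924. Of the full-length forms, Ntrk2-207 was listed at 10.97 and 10.52 TPM and Ntrk2-201, whose 8744-base mRNA has the longest 3′ UTR of the gene, at 1.22 and 1.06 TPM.

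Ntrk3 had the opposite balance in the M21 tables, with a wider spread. The 3 full-length forms made up 50.5% of its TPM in pool 1 and 54.0% in pool 2 (52.2% ± 2.5), or 3.87 and 3.86 TPM. The truncated form, Ntrk3-202, made up 32.2% and 40.3% (36.2% ± 5.71), or 2.47 and 2.88 TPM. The ratio of full-length to truncated TPM was 1.57 and 1.34 (1.45 ± 0.160). The other 16 transcripts have no complete coding sequence and held 17.3% of the gene's TPM in pool 1 and 5.73% in pool 2, from 7.66 and 4.03 expected counts in all. The levels of full-length receptor RNA were thus closer than those of the whole genes: Ntrk2 exceeded Ntrk3 3.15-fold in pool 1 and 3.00-fold in pool 2 by this measure (3.07 ± 0.106).

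Within the full-length Ntrk3 forms, those with an insert in the kinase held 43.4% and 46.7% of the gene's TPM (45.1% ± 2.33), and Ntrk3-201 without it 7.04% and 7.27% (7.16% ± 0.164). Which insert was present was not resolved. Ntrk3-205, with the short insert, was listed at 3.33 and 0.61 TPM, and Ntrk3-206, with the long insert, at 0 and 2.73 TPM. Their intervals overlapped in both pools, from 0.502 to 3.37 TPM for Ntrk3-205 and up to 2.38 TPM for Ntrk3-206 in pool 1, and up to 3.05 and 3.30 TPM in pool 2. The Ntrk3 transcript of highest TPM was Ntrk3-205 in pool 1 and the truncated Ntrk3-202 (2.88 TPM) in pool 2. The leading transcript differed between the pools in this way for 10.6% of all genes at 1 TPM or more with several transcripts, and Ntrk3 was the only such member of the 6 with 2 or more transcripts. The M21 mRNAs also differ in length, 19703 bases for Ntrk3-201 against 2678 and 2774 for the forms with an insert, whose annotated ends hold little UTR. In the TPM the counts of a transcript are divided by its effective length: for Ntrk3-201, 212 and 187 expected counts gave 0.54 and 0.52 TPM, while the 171 counts of Ntrk3-205 in pool 1 gave 3.33.

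**Figure D2:**
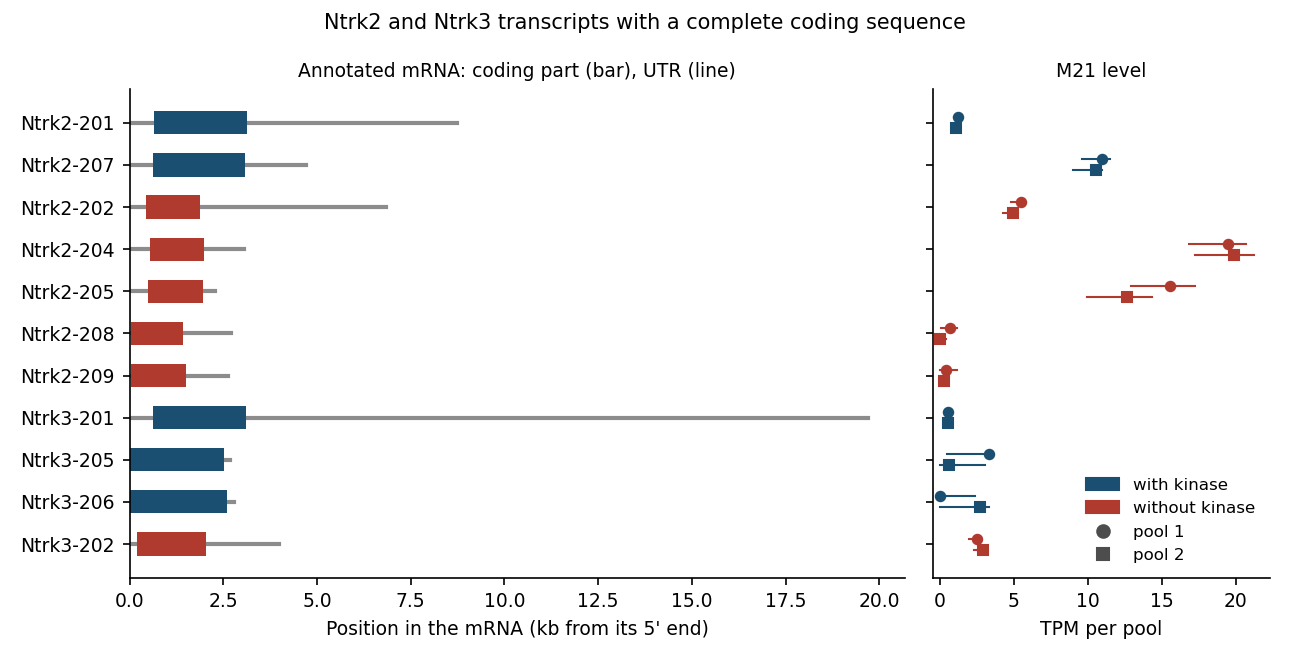
Left, the annotated Ntrk2 and Ntrk3 mRNAs with a complete coding sequence, drawn to scale in kilobases from the 5′ end, with bars for the coding part and lines for UTR. Right, their M21 TPM in pool 1 (circles) and pool 2 (squares) with the deposited intervals as lines, where the truncated Ntrk2-204 and Ntrk2-205 lie highest and the lines of Ntrk3-205 and Ntrk3-206 overlap.

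Both forms of Ret were present. The short-tailed Ret-202 was listed at 3.14 and 2.93 TPM, 61.3% and 58.7% of the gene, and the long-tailed Ret-201 at 1.98 and 2.06 TPM, 38.7% and 41.3% (40.0% ± 1.85). The difference between the tails was larger than the spread between the pools, and the deposited intervals of the forms did not overlap in either pool, with 2.58 TPM as the lower bound of the short tail and 2.28 TPM as the upper bound of the long tail in pool 1, and 2.37 and 2.36 TPM in pool 2.

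Gfra1 forms that include the 5-residue cassette held 61.9% and 59.9% of the TPM of its complete forms (60.9% ± 1.44), and the form that skips it 38.1% and 40.1% (39.1% ± 1.44). The main transcripts were of similar length, Gfra1-201 at 18.32 and 19.36 TPM with the cassette and Gfra1-203 at 14.38 and 16.17 TPM without it. A further 18.4% and 19.4% of the gene's TPM was assigned to 5 entries with no complete coding sequence, led by Gfra1-204 (7.79 and 6.89 TPM), an entry of 841 bases at the 5′ end of the gene.

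In the listed TPM each ligand gene was led by a single annotated transcript. Bdnf has 11 annotated transcripts that fall into 8 groups by their 5′-most exon. The group that starts at the sixth of these exons in genome order, chr2:109693563-109693909, held 79.2% of Bdnf TPM in pool 1 and 72.9% in pool 2, all from Bdnf-205, at 1.98 and 2.40 TPM. In pool 1 that value lay above the transcript's own interval of 0.594 to 1.66 TPM, and by posterior mean TPM the share of Bdnf-205 was 42.9% in pool 1 and 56.6% in pool 2. The group that starts at the fourth, chr2:109692436-109692774, held 16.8% and 20.1%, from Bdnf-209 at 0.42 and 0.66 TPM. The other 6 groups were each under 5% of the listed TPM in both pools. For Ntf3, Ntf3-203 held all of the TPM in pool 1 and 91.0% in pool 2, or 84.5% and 78.0% by posterior mean. Gdnf and Ngfr each have a single transcript in M21.

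**Figure D3:**
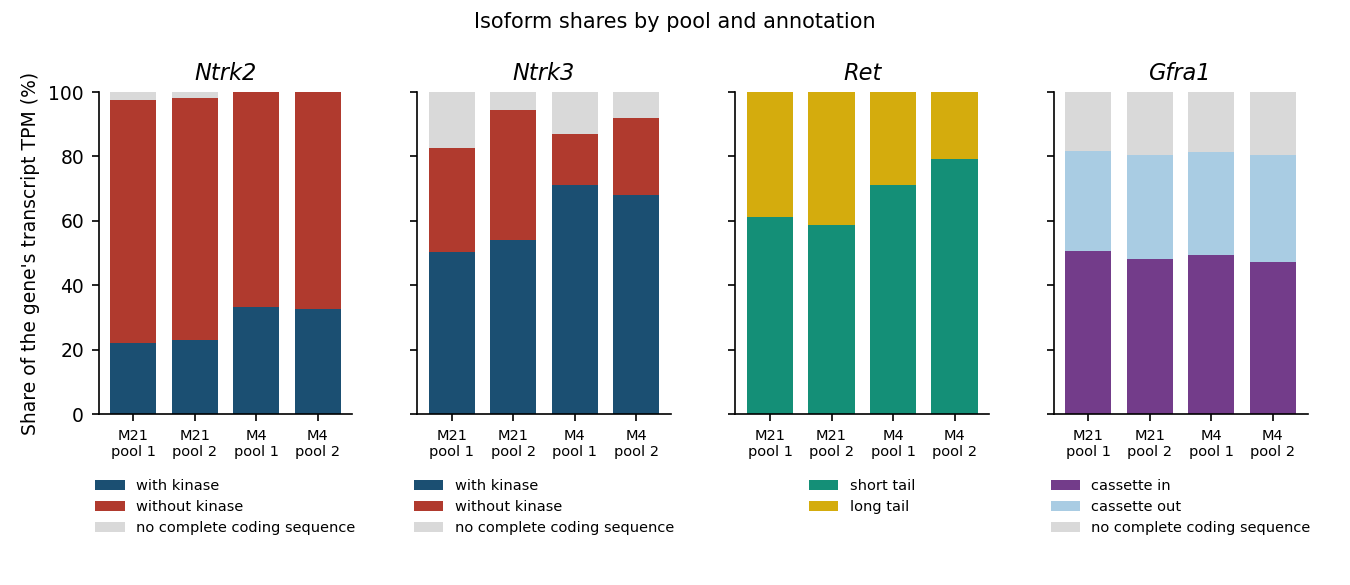
Share of the gene's transcript TPM, in percent, for Ntrk2, Ntrk3, Ret and Gfra1 in each pool, with M21 in the left pair of bars and M4 in the right pair of each panel. Truncated forms take 75.4% and 75.2% of Ntrk2 in M21 and stay the larger part in M4, while those of Ntrk3 are the smaller part in both annotations.

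The level of Ntrk2 depended on the annotation used by the authors. With the older GENCODE M4, Ntrk2 was listed at 26.58 and 24.78 TPM (25.7 ± 1.27), and its mean was 2.05-fold higher in M21. Its expected counts were nearly the same, 1.04-fold higher in M21, but the effective length by which they were divided was 2.07-fold longer in M4. Ntrk2 was the only 1 of 8 members to differ 1.5-fold or more between the annotations, against 6.00% of genes at 1 TPM or more in both, and 4.55% that were higher in M21. The members in M4 stood in another order, with Gfra1 (49.9 ± 2.74 TPM) and Ngfr (32.4 ± 1.36 TPM) above Ntrk2, and with no overlap of pools among these 3. Ret was the other member past 1.25-fold, as were 11.1% of genes, at 3.86 and 3.72 TPM in M4 and 1.33-fold higher in M21. In M4 the mean of Ret was 1.14-fold above that of Ntf3, with overlapping intervals. In M21 it was 1.44-fold above, with no overlap. The ratio of Ntrk2 to Ntrk3 TPM was 3.60 ± 0.253 in M4 in place of 7.10, and that of Gfra1 to Ret 13.2 ± 1.07 in place of 9.54. The ratio of Ntrk2 to Bdnf TPM was 10.1 and 7.10 in M4 (8.58 ± 2.10) in place of 18.6. For the full-length forms alone, the ratio of Ntrk2 to Ntrk3 was 1.78 and 1.64 in M4 (1.71 ± 0.0964) in place of 3.07.

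Ntrk3 had 1.79-fold more counts in M21 than in M4, but its TPM was 1.04-fold higher, as its effective length in M4 was 0.611 times that in M21. Ntrk3-201 is 3300 bases long in M4 and 19703 in M21. The M21 TPM of Ntrk3 also lay below its own deposited interval in both pools, 8.40 to 12.9 TPM in pool 1 and 8.22 to 12.4 TPM in pool 2. It was 1 of 8 members for which this held, against 5.10% of genes at 1 TPM or more. The deposited posterior mean was 10.51 and 10.20 TPM, and it gives a level above 0 to short entries listed at 0 TPM, such as Ntrk3-207 of 364 bases (0.55 and 0.64 TPM).

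The balance of isoforms kept its direction in M4 for Ntrk2, Ntrk3 and Ret, with other values. Truncated Ntrk2 held 66.6% and 67.3% of TPM (67.0% ± 0.510), where M4 has 1 truncated and 1 full-length transcript. Truncated Ntrk3 held 15.8% and 23.7% (19.8% ± 5.59) and full-length Ntrk3 69.7% ± 2.18. Ntrk3-201, the full-length form without an insert, held 23.8% and 12.3% in M4 (18.0% ± 8.14), against 7.16% in M21. In M4 the listed values of Ntrk3-205 and Ntrk3-206 changed places between the pools, from 3.07 and 0.26 TPM in pool 1 to 0.10 and 3.95 TPM in pool 2. The short tail of Ret held 71.0% and 79.3% in M4 (75.1% ± 5.88).

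With the main scaling the members differed little between the pools. Counts were scaled by the trimmed mean of M values (TMM), and the ratio of pool 2 to pool 1 was taken with a 95% interval that covers counting error only. A 2-fold difference was reached by 0 of the 7 members with a mean of at least 50 counts, against 1.00% of the 14995 genes of that depth. Bdnf had the largest ratio, 193 against 235 counts, a log2 ratio of 0.39 (interval 0.11 to 0.67), or 1.31-fold higher in pool 2. It was the only 1 of 7 members past 1.25-fold, as were 11.5% of genes in either direction and 5.78% towards pool 2. Ntrk2 was lower in pool 2, with a log2 ratio of -0.13 (-0.19 to -0.06), and Gfra1 higher at 0.08 (0.01 to 0.15). For the other 5 members, Ngfr, Ntrk3, Ret, Ntf3 and Gdnf, the counting interval included no change. For Gdnf, with 25 counts a pool, it ran from -0.75 to 0.97, so a difference of nearly 2-fold was not detectable at this depth. Scaling by spike-in totals moved every log2 ratio by -0.37, and the order of the members by size of difference changed with it. Ntf3 then stood at -0.51, Ntrk2 at -0.50, Ret at -0.42, Ntrk3 at -0.33, Ngfr and Gfra1 at -0.30 and Gdnf at -0.26, while Bdnf had the smallest ratio, 0.02. With that scaling 4 of 7 members passed 1.25-fold, as did 65.6% of genes, and Ngfr, Gfra1, Ntrk3 and Gdnf changed direction.

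**Figure D4:**
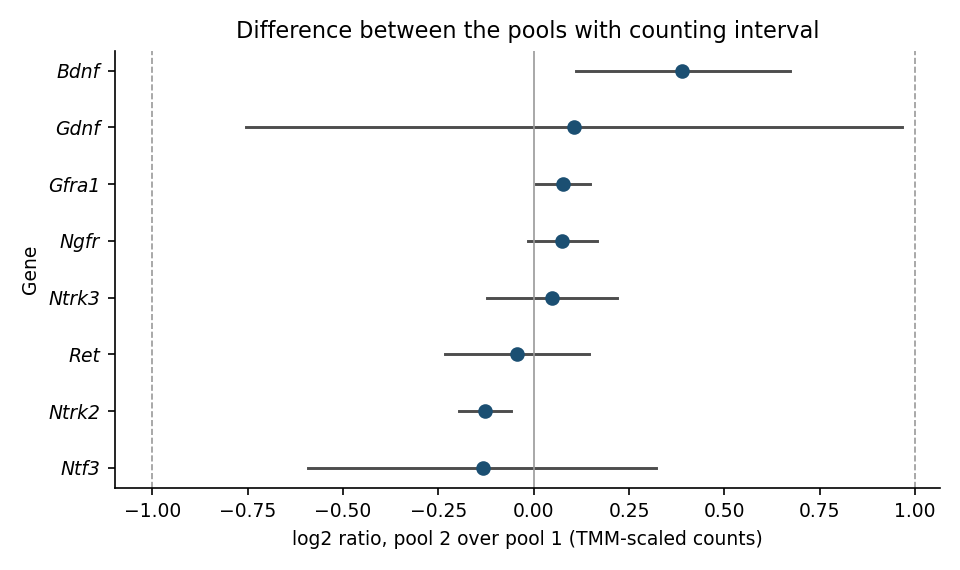
Log2 ratio of pool 2 over pool 1 in TMM-scaled counts for each member (points) with its 95% counting interval (lines), a solid line at no change and dashed lines at 2-fold. All points lie inside the dashed lines, Bdnf is highest at 0.39 (0.02 with spike-in scaling, under which Ngfr, Gfra1, Ntrk3 and Gdnf turn negative), and the interval of Gdnf is the widest.

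Markers of the cell types that the tissue could hold were present in both pools. The 8 markers of cranial sensory ganglia, led by Pou4f1 (46.3 ± 7.43 TPM) and Tlx3 (24.5 ± 2.00 TPM), summed to 130 and 157 TPM. With TMM scaling 7 of the 8 were nominally higher in pool 2. The 8 markers of brainstem motor neurons, with Isl1 (34.6 ± 0.955 TPM) among the highest, summed to 112 and 126 TPM. The 7 markers of Schwann cells and the crest lineage summed to 1290 and 1144 TPM, of which Fabp7, also a marker of radial glia, gave 1238 and 1093 TPM. The 8 markers of radial glia summed to 2580 and 2360 TPM and the 7 of meninges and mesenchyme to 1011 and 1332 TPM. Postmitotic neuron markers summed to 1958 and 2036 TPM, noradrenergic markers to 63.4 and 68.7, endothelial and pericyte markers to 110 and 118, and choroid plexus markers to 337 and 396. No marker in these lists was at 0 counts. In bulk tissue fewer cells of a type and less RNA per cell cannot be told apart, and the part of these cells, or of the muscle and otic tissue, in the levels and ratios of the members was not tested.

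Reads of a gene and of a neighbour on the other strand could not be told apart with certainty, because the sources used here do not say how strand was treated. Exons of Gfra1 share 416 bases with those of the antisense gene Gm16277 (5.51 and 6.68 TPM, 62.0 and 69.2 counts, against 3240 and 3175 counts of Gfra1). Exons of Bdnf share 896 bases with those of the antisense gene Gm45346, which was listed at 0 and 0.2 TPM (0 and 4.27 counts). The genes that lie within the span of Ntrk2 and Ntrk3 share no exonic base with them, and no gene overlaps the span of Ngfr, Ntf3, Gdnf or Ret in M21.

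The wider pathway was described from 9 lists by role with 79 genes, the members included. Of these, 75 reached 1 TPM in both pools, or 94.9% against 61.8% of all protein-coding genes, with a median of 18.3 TPM against 5.47 TPM for all protein-coding genes. Of the 73 pathway genes with a mean of at least 50 counts, 0 were 2-fold apart between the pools, and 42 were nominally higher in pool 2 and 31 in pool 1. That split followed the scaling: with spike-in totals 8 were higher in pool 2 and 65 in pool 1. The same tally over all genes of that depth was not made, so neither split is read as a trait of the pathway. With spike-in totals Sox10, a crest and glial factor listed at 15.11 and 9.53 TPM, passed 2-fold.

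The other ligands also had low TPM. Of the neurotrophins, Ntf5, which encodes neurotrophin-4, was listed at 0.94 and 0.99 TPM. Of the GDNF family, Nrtn (neurturin) stood highest at 3.96 and 3.00 TPM, above Artn (artemin) at 1.32 and 1.75 TPM and Pspn (persephin) at 0.53 and 0.43 TPM, the last from 4 and 3 counts. In M21 the highest mean of the 8 ligands, 3.50 TPM for Ntf3, thus lay below the 5.05 TPM of Ret. In M4 this gap nearly closed, with means of 3.66 TPM for Nrtn and 3.79 TPM for Ret. Nrtn then stood above Ret in pool 1, at 4.16 against 3.86 TPM, and below it in pool 2, at 3.16 against 3.72 TPM. In the receptor lists Gfra3 and Gfra2 were the genes with a mean below that of Ret.

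Among the other receptors, Sort1, which encodes sortilin, a co-receptor of p75NTR for proneurotrophins, stood at 27.0 ± 0.141 TPM, and its relatives Sorcs2 and Sorcs3 at 13.4 ± 0.276 and 5.77 ± 0.12 TPM. Ncam1, an adhesion molecule that can act as another receptor of GDNF with GFRα1, stood at 201 ± 22.6 TPM, and the proteoglycan Sdc3 at 49.0 ± 3.08 TPM. The other GFRα genes were much lower than Gfra1, with Gfra4 at 9.92 ± 2.15, Gfra3 at 2.97 ± 1.15 and Gfra2 at 2.79 ± 0.707 TPM. Gfra3, a receptor for artemin, had 82 counts in pool 1 and 132 in pool 2, a log2 ratio of 0.79.

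Genes for partners of the receptors, at the cell surface or inside the cell, were present throughout. All 9 p75NTR partners reached 1 TPM, led by Maged1 (759 ± 27.9 TPM), Bex3 (515 ± 9.74 TPM) and Arhgdia (423 ± 2.67 TPM), as did all 25 adaptors and effectors of the kinase receptors, with Grb2 (121 ± 6.32 TPM) and Akt1 (119 ± 0.346 TPM) among the highest. The 8 receptor regulators were led by the phosphatase gene Ptprs (247 ± 3.99 TPM), ahead of Spry2 (31.7 ± 5.86 TPM) and Slitrk5 (23.1 ± 1.19 TPM). Of 7 genes of ligand and receptor processing, the protease gene Adam10 was highest at 72.5 ± 5.70 TPM and the proprotein convertase genes Pcsk5, Furin and Pcsk6 lowest at 9.65 ± 0.460, 5.02 ± 0.438 and 1.10 TPM. Of 8 transcription factor genes that act on these receptors or their cells, 7 reached 1 TPM, with Pou4f1 and Creb1 (43.4 ± 0.594 TPM) highest, and Runx3, known for its role in TrkC-positive sensory neurons, was listed at 0.15 and 0.22 TPM. Those values came from 11 and 15 expected counts and lay below their own deposited intervals of 0.336 to 2.15 and 0.396 to 2.26 TPM. By the posterior mean, 1.16 and 1.22 TPM, Runx3 passed 1 TPM too. With so few counts, whether Runx3 reached 1 TPM was not resolved.

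**Figure D5:**
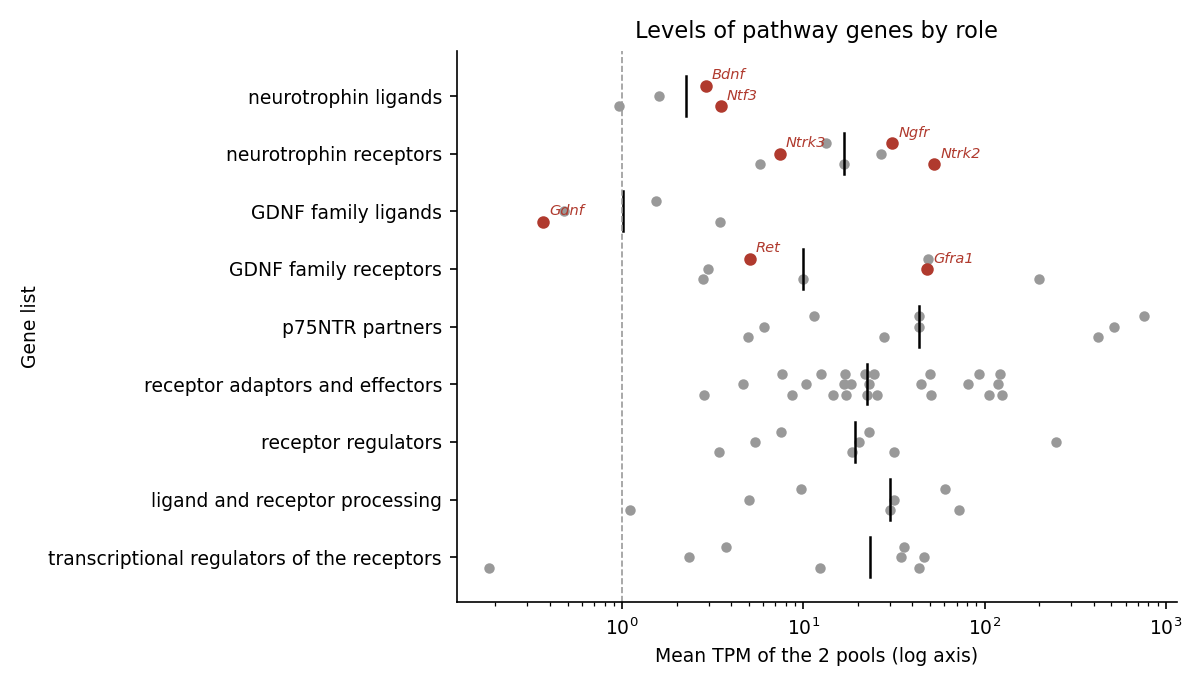
Mean TPM over the 2 pools of each gene in the 9 pathway lists, on a log axis, with the members in red, the other genes in grey, a black bar for each list's median and a dashed line at 1 TPM. The ligand lists have the lowest medians, 2.24 TPM for neurotrophins and 1.01 TPM for the GDNF family, against 16.7 and 9.92 TPM for their receptor lists.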

How the data were processed

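PolyA RNA-seq of 2 hindbrain pools was analysed. Libraries were made from 10 ng of mirVana-extracted RNA by oligo-dT priming and Nextera tagmentation, with spike-in RNAs, per the labels' protocols. The sources used here do not give the quantification program or its use of strand. The authors deposited, for GENCODE M21 and M4 on mm10, expected counts (estimated reads, not scaled for depth) and TPM over all entries, spike-ins included. Per the file headers, posterior mean TPM and credibility interval bounds, a score here because their level is not stated, come with them. Isoform shares in percent were computed from the TPM of the deposited transcript tables. The counting intervals of the ratios between pools treat reads as independent. Without molecular identifiers, they do not cover duplicates from low-input amplification.

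M21 was the main quantification. Coding sequences were translated with Biopython 1.88; a membrane-spanning stretch was 19 residues with mean hydropathy of 1.6 or more beyond the first 30. M4 transcripts were matched to M21 by identifier. Ratios between pools used the expected counts rounded to whole numbers, TMM factors from edgeR 4.0.16 and a prior count of 0.5, with size factors from DESeq2 1.42.0 as an alternative; the intervals are exact binomial (Clopper-Pearson), at 95%. The ratio calculation was tested on simulated data. Members, lists and alternatives were chosen with earlier results of these data known. Named were all members, every gene of pathway lists of up to 7 genes, and of longer ones the 3 of highest TPM, those under 1 TPM and those 2-fold apart; of marker lists the 2 of highest TPM and those at 0. Sox10 and the antisense genes, outside this rule, were named after their values were seen. Some genes that the rule would name are not reported here, though they stay in the counts, sums and medians of their lists.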

Additional observations from a re-analysis of the deposited data

How the results depend on the processing

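With 2 pools of 1 group no result has a test, so the alternatives show only how values move. No paired analysis was possible because the labels give a single group. The truncated share of Ntrk2, 75.3%, was 67.0% in M4, 66.7% as a share of expected counts, 73.9% from posterior mean TPM, 76.9% among full-length and truncated forms only, and 47.4% when only the T1 tail was counted, an alternative chosen after seeing the data; with a single pool it was 75.2% to 75.4%. The truncated share of Ntrk3, 36.2%, was 19.8% in M4 and 24.7% from posterior mean TPM, and 32.2% to 40.3% with a single pool. At a threshold of 5 TPM, 4 members passed in place of 7. With spike-in totals 1 pathway gene, Sox10, in place of 0 passed 2-fold between the pools; the other scalings, filters, prior count and M4 gave 0. M4 moved the TPM of 4 of 8 members, and rescaling over genes that of 7, by more than the SD over the pools. Depth limits Gdnf, with 25 counts. The split of Ntrk3-205, which has 0 bases of its own, from Ntrk3-206, which has 75, was not resolved, and the cause was not tested.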
